A study of Mus musculus with 14 samples.

Results

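The Ly6 surface antigen genes Ly6a, Ly6c1, Ly6c2, Ly6d and Ly6e were described in single cells from lymphoma nodules of mice in which Eif3e, a subunit of a translation initiation factor, was deleted through a Cre allele. The 5 genes were chosen by symbol from the 32285 genes of the count matrices, and they were selected from earlier results of these same data on malignant B clones, malignant T clones and monocytes. Their levels in those 3 populations are therefore given as a description, with intervals for counting error and no p-value for a member. Tests are given for CD8 against CD4 T cells, for T cells of the mice with a T clone against those with a B clone, and for cell classes next to each other in level. Some of these classes include clone cells.

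All 7 mice were Eif3e fl/fl Cγ1Cre on a C57BL/6J background, with Cre expressed from the Ighg1 locus and thus in activated B cells, and some also carried a Rosa26-YFP LSL reporter. Each nodule gave 1 RNA library and 1 receptor library. A B cell receptor (BCR) library was made for 5 mice: mouse 27 (liver, 12 months), mouse 29 (lung, 12 months), mouse 31 (spleen, 13 months), mouse 33 (thymus, 16 months) and mouse 34 (lung and thymus, 9 months). A T cell receptor (TCR) library was made for mouse 30 (liver, 14 months) and mouse 32 (spleen, 12 months). The nodule of mouse 27 was a secondary tumor grown in a Rag2-/- recipient, a strain without mature B and T cells of its own, and donor and recipient cells were not separated. No nodule-free or undeleted control library was used, so every comparison is between cells of tumor nodules. Some cells of the mouse 27 library may be the recipient's, without the floxed alleles. The study found the B and CD4 T cells of its primary and secondary tumors to lack YFP and to hold eIF3e protein at normal levels. Cells of the nodules are therefore not taken here as cells with the deletion.

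Ly6 proteins are small surface proteins folded around a set of disulfide bonds and held in the membrane by a glycolipid (GPI) anchor, and most of their mouse genes lie in 1 cluster. Several are used as antibody targets to sort blood cells. Ly6a encodes Sca-1, a marker of mouse hematopoietic stem and progenitor cells that is also found on activated lymphocytes and endothelium and is induced by interferon. Ly6c1 and Ly6c2 encode the 2 near-identical forms of the Ly-6C antigen, which marks inflammatory monocytes, plasma cells and subsets of CD8 T cells. Ly6d marks early B lineage progenitors and mature B cells, as well as squamous epithelium, and Ly6e encodes an antigen first described on thymocytes that is broadly expressed and interferon-inducible.

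In the RefSeq annotation of GRCm38.p6 the 5 genes lay on chromosome 15 within 350 kb that held 13 protein-coding genes. Ly6d was at chr15:74762056-74763567, Ly6e at chr15:74955025-74959904, Ly6a at chr15:74994877-74998031, Ly6c1 at chr15:75044018-75048920 and Ly6c2 at chr15:75108161-75112066. The stretches just upstream of Ly6c1 and Ly6c2, from the RefSeq promoter table, are shown because these 2 paralogs were detected in different cells. The Ly6c1 stretch is chr15:75048921-75049087 and the Ly6c2 stretch chr15:75112067-75112221, both on the minus strand and written 5′ to 3′. Capitals mark a TATA box (TATAAA) in Ly6c1 and a PU.1-type motif (GAGGAAGT) in Ly6c2.
Ly6c1: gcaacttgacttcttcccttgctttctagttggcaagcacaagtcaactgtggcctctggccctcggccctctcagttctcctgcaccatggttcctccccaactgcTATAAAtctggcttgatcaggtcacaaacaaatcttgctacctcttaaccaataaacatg
Ly6c2: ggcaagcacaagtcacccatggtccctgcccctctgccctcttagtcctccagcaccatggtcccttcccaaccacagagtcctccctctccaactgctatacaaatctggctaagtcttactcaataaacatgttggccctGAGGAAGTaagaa
In a global alignment 102 of 130 aligned bases of the pair were identical (78.5%). Over the full windows of 300 bases and both strands, TATAAA occurred once in Ly6c1 and not in Ly6c2, and it was in 13.6% of the 32851 promoter windows of the table. GAGGAAGT occurred in Ly6c2 2 times, 1 of them in the stretch shown, and not in Ly6c1, against 3.20% of all windows. The interferon-related motifs TTCNNNGAA, a GAS element (8.30% of windows), and the ISRE core (3.44%) were in neither. The motifs were picked after the levels were known, they do not overlap one another in the windows, and a match is a run of letters and not a measured binding site. Promoter windows of Ly6a, Ly6d and Ly6e were not used here.

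After the cell filters 75503 of 77442 deposited cells remained, with 19254544 to 122550206 unique molecular identifiers (UMIs, counted molecules) per library and a median of 1364 to 5319 UMIs per cell. Pairs of libraries shared 96 to 286 cell barcodes, at most 2.28% of the smaller library. Levels are given as CPM, a gene's UMIs scaled to 1000000 UMIs summed over the cells of 1 kind in 1 mouse. A clone was the set of cells carrying the most frequent heavy or light chain of the BCR library, or the most frequent α or β chain of the TCR library, which held 84.2% to 100% of cells with a receptor call. Other B or other T cells were cells of B-like or T-like clusters with another receptor. Eif3e transcripts were counted at 169 to 243 CPM in B clones, 108 to 218 CPM in other B cells, 142 to 146 CPM in T clones and 162 to 183 CPM in other T cells; counts over the whole gene do not show whether the floxed part was deleted.

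The B clones held 1782, 323, 3974, 1084 and 1416 cells in mice 27, 29, 31, 33 and 34. Mice 29, 31, 33 and 34 also had 32, 41, 28 and 24 other B cells, and mouse 27 had none. Other B cells were thus few, and their sums of 138568 to 253390 UMIs put the level of 3 UMIs at 11.8 to 21.6 CPM. They were also shallower than clone cells in each mouse, with medians of 2043 to 9447 UMIs per cell against 11199.5 to 13763.

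Ly6c2 was below 4 CPM in every B clone, and above the floor of 3 UMIs in the other B cells of 3 mice. Its level in the B clones was 3.47, 2.31, 0.185, 3.25 and 0.919 CPM in mice 27, 29, 31, 33 and 34. In other B cells it was 243, 43.3, 401 and 3.95 CPM in mice 29, 31, 33 and 34, from 45, 6, 101 and 1 UMIs. The clone lay below the other B cells in 4 of 4 mice, but in mouse 34 the other B cells held only 1 Ly6c2 UMI and the ratio of clone to other B cells, 0.233, had an exact 95% interval of 0.0362 to 9.77. In mice 29, 31 and 33 that ratio was 0.00951, 0.00428 and 0.00811, with intervals that reached no higher than 0.0197. The within-mouse log2 ratio of CPM + 10 averaged −3.01 ± 2.09 (SD, n = 4). Of the few Ly6c2 UMIs in clones, 43 of the 54 in mouse 33 came from 42 clone cells in an unnamed cluster and 8 of the 9 in mouse 31 from 2 clone cells in a macrophage-like cluster.

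Ly6d varied most among the B clones. It stood at 85.2, 329, 3.01, 0.241 and 112 CPM in mice 27, 29, 31, 33 and 34, while other B cells held 351, 267, 159 and 375 CPM in mice 29, 31, 33 and 34. The clones of mice 31 and 33 were therefore far below every other measured B population, and the clone of mouse 29 was within counting error of its other B cells, with a ratio of 0.939 (0.732 to 1.22). The ratio was 0.0113 (0.00780 to 0.0166) in mouse 31, 0.00152 (0.000394 to 0.00419) in mouse 33 and 0.300 (0.244 to 0.372) in mouse 34. On the log2 scale the within-mouse ratio averaged −2.55 ± 2.05 (SD, n = 4).

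Ly6a was high in 4 B clones and almost absent from the fifth. The clones had 392, 3.08, 246, 247 and 264 CPM in mice 27, 29, 31, 33 and 34, and other B cells had 200, 216, 762 and 217 CPM in mice 29, 31, 33 and 34. The ratio of clone to other B cells was 0.0154 (0.00732 to 0.0302) in mouse 29 and 0.323 (0.280 to 0.376) in mouse 33, but 1.14 (0.797 to 1.69) in mouse 31 and 1.22 (0.934 to 1.62) in mouse 34, so no common direction was seen. Over the 4 mice the log2 ratio averaged −1.28 ± 2.00 (SD), and −0.38 without mouse 29. The low clone of mouse 29 came from 12 UMIs in 3898561.

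Ly6e differed least. Its level was 622, 368, 916, 651 and 775 CPM in the clones of mice 27, 29, 31, 33 and 34, and 534, 830, 723 and 754 CPM in other B cells of mice 29, 31, 33 and 34. The 2 ranges overlapped, and the log2 ratio averaged −0.12 ± 0.29 (SD, n = 4). Ly6c1 was at 0 UMIs in the other B cells of all 4 mice and between 0.0550 and 10.3 CPM in the clones, all at or under the floor of the other B cells, so no fold is given. Of the 179 Ly6c1 UMIs in the clone of mouse 34, 164 (91.6%) came from 15 clone cells that clustered with endothelial cells, where Ly6c1 reached 767 CPM, against 0.771 CPM in the 1388 clone cells of B-like clusters.

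**Figure D1:**
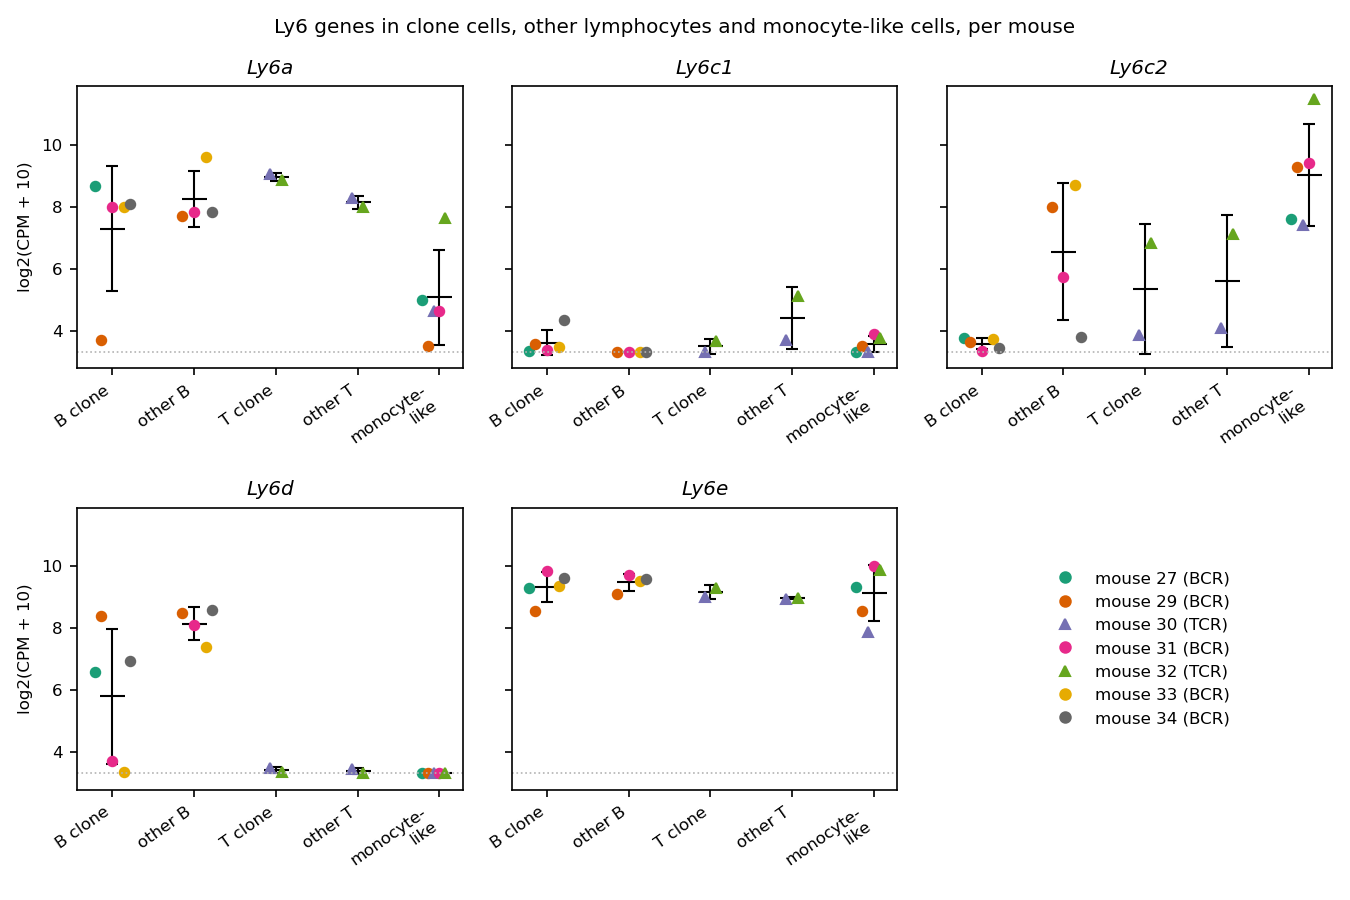
Levels of the 5 Ly6 genes as log2(CPM + 10) in B clones, other B cells, T clones, other T cells and monocyte-like cells; each point is 1 mouse (circles, mice with a B clone; triangles, mice with a T clone), bars are mean ± SD over mice, and the dotted line is 0 CPM. Ly6c2 lies near the dotted line in the 5 B clones (0.185 to 3.47 CPM) and highest in monocyte-like cells, and Ly6d spreads from 0.241 to 329 CPM among the B clones.

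In the edgeR fit across all genes with the mouse as a block, 8 of 9237 genes passed an adjusted p of 0.05 between B clones and other B cells (0.0866%), 3 higher (0.0325%) and 5 lower (0.0541%) in the clones. Ly6a, Ly6d and Ly6e were among the genes fitted, Ly6c1 and Ly6c2 did not pass the low-count filter. Of 7854 genes of at least 10 CPM, 5.37% were lower and 17.8% higher in the clone in each of the 4 mice. Ly6c2 and Ly6d were among those lower in each mouse; since the genes were picked with this contrast in view, nothing is read from that.

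Because clone cells were deeper, the share of cells with a UMI was also compared after every cell was thinned to 1000 UMIs. For Ly6d the thinned share was 7.36%, 25.7%, 0.352%, 0% and 10.5% in the clones of mice 27, 29, 31, 33 and 34, and the exact Clopper-Pearson 95% interval of the 0 of 1083 cells in mouse 33 reached 0.340%. In other B cells it was 10.3%, 13.9%, 10.7% and 20.8% in mice 29, 31, 33 and 34. Before thinning, 36.1%, 78.3%, 2.77%, 0.369% and 53.4% of clone cells and 37.5%, 39.0%, 21.4% and 37.5% of other B cells had a Ly6d UMI. T clone cells, which should lack Ly6d, had a Ly6d UMI in 0.250% (0.0811% to 0.581%) of thinned cells in mouse 30 and in 0% (up to 0.0761%) in mouse 32, and in 0.332% and 0.103% before thinning, at medians of 1992 and 3805 UMIs. The thinned share of the mouse 33 B clone overlapped those of the T clones of mice 30 and 32. That of the mouse 31 B clone (0.193% to 0.590%) overlapped the mouse 30 T clone but lay above the mouse 32 T clone. T cells of mouse 31 outside the clone had a thinned share of 0% (up to 0.474%), which overlapped too. In summed CPM, the mouse 31 clone (interval 2.54 to 3.54) was above those T cells (0 UMIs, up to 2.16). The mouse 33 clone (0.0656 to 0.617) overlapped its own library's T cells (0.0672 to 0.632). The mouse 33 clone was thus not told apart from background, and for mouse 31 this depended on the reference and measure.

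Ly6a UMIs were found in 29.7%, 0.310%, 18.9%, 22.3% and 22.5% of thinned clone cells in mice 27, 29, 31, 33 and 34. The share among other B cells was 24.1%, 16.7%, 28.6% and 16.7% in mice 29, 31, 33 and 34, and for mouse 29 its interval of 10.3% to 43.5% did not meet the clone's 0.00784% to 1.71%. Unthinned shares were 85.1%, 3.72%, 59.6%, 80.5% and 82.6% in the clones and 31.2%, 34.1%, 78.6% and 58.3% in other B cells. Neutrophil-like cells of mouse 29, with a median of 2077 UMIs, had a Ly6a UMI in 1.47% of cells before thinning. For Ly6e the thinned shares were 34.1% to 59.2% in the clones and 51.7% to 63.9% in other B cells.

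**Figure D2:**
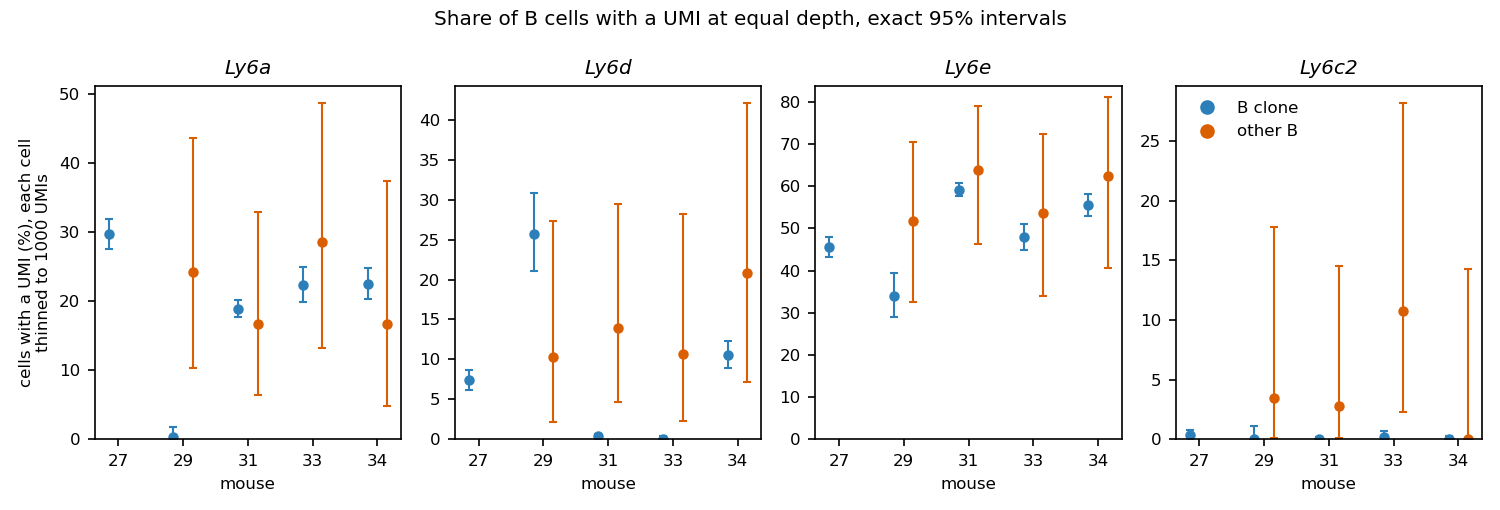
Share of B cells with at least 1 UMI of each Ly6 gene after thinning to 1000 UMIs per cell, for the clone and the other B cells of each mouse, in percent with exact 95% intervals. The Ly6d share of the clone runs from 0% in mouse 33 to 25.7% in mouse 29, and the Ly6a share of the mouse 29 clone is 0.310%.

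Ly6c2 UMIs in other B cells were concentrated in a few cells, which when pooled held more plasma cell transcripts than the rest. Of the 125 other B cells, 13 had a Ly6c2 UMI and 112 had none, a split made after the levels were seen and described without a test. By mouse, 6, 2, 4 and 1 of the 13 cells came from mice 29, 31, 33 and 34, and 1 cell of mouse 33 held 49 Ly6c2 UMIs. The sums below pool the mice, so differences between mice and between cells cannot be told apart. They also do not show whether each of the 13 cells held plasma cell transcripts. The 13 cells had a median of 9558 UMIs per cell and the 112 cells 4427. Summed over the cells, the 6 plasma cell markers stood at 18850 CPM in the 13 cells and 2513 CPM in the 112, Jchain, which joins IgM and IgA chains, at 17164 and 1882 CPM, and Ighm, the IgM heavy chain, at 40966 and 2373 CPM. Most of the marker sum was Jchain itself, with 2312 of 2539 UMIs in the 13 cells and 1307 of 1745 in the 112. Of the other markers, Mzb1 stood at 1284 and 501 CPM and Xbp1 at 275 and 90.7 CPM. Prdm1, which encodes the plasma cell regulator Blimp-1, stood at 96.5 and 34.6 CPM. Sdc1 had no UMI in the 13 cells but some in the 112, and Tnfrsf17 the reverse. Ly6a was 943 CPM in the 13 cells and 269 CPM in the rest, and Ly6d 483 and 248 CPM.

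The 10 monocyte markers summed to 52.0 CPM in the 13 cells and 107 CPM in the 112, and Cd3e was at 0 in both. By mouse, the plasma cell markers of other B cells summed to 15823, 2064, 3093 and 1125 CPM in mice 29, 31, 33 and 34, against 304 to 1916 CPM in the 5 clones. Ighm was at 0.879 CPM over all B clone cells. The part of this difference in plasma cell content in the Ly6c2 ratios was not tested.

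The T clones held 2107 cells in mouse 30 and 4868 in mouse 32, set against 394 and 503 other T cells. Ly6a was higher in both T clones. It measured 516 and 452 CPM in the clones of mice 30 and 32 and 301 and 244 CPM in other T cells, and the groups did not overlap. The ratios were 1.71 (1.52 to 1.94) and 1.85 (1.68 to 2.04), with a mean log2 ratio of 0.81 ± 0.07 (SD, n = 2). The edgeR fit across all genes called 25 of 11639 between T clones and other T cells (0.215%), 1 higher (0.00859%) and 24 lower (0.206%). Of 8523 genes, 41.9% were higher in both clones and 18.1% lower in both, so a shared direction in 2 mice is common among all genes.

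Ly6e stood at 500 and 626 CPM in the T clones of mice 30 and 32 and at 485 and 496 CPM in other T cells, a mean log2 ratio of 0.19 ± 0.20 (SD, n = 2). Ly6c2 measured 4.43 and 104 CPM in the clones and 7.12 and 128 CPM in other T cells. Here the 2 mice differed far more than the 2 kinds of cell, and the mean log2 ratio was −0.26 ± 0.02. Most Ly6c2 UMIs of the mouse 32 clone, 2156 of 2885 (74.7%), were in 100 clone cells that fell into neutrophil-like clusters, at 1025 CPM. The 4546 clone cells in T-like clusters had 29.8 CPM, and with those cells alone the mean log2 ratio over the 2 mice was −1.15. Against only the CD4-gated other T cells the direction turned, to 1.06.

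Neutrophil markers summed to 1168 and 2850 CPM in the T clones against 264 and 326 CPM in other T cells, and erythroid markers to 1421 CPM in the mouse 32 clone against 171 CPM. Ly6c1 was at 0 and 2.71 CPM in the T clones and at 3.05 and 24.7 CPM in other T cells. Of the 75 Ly6c1 UMIs in the mouse 32 clone, 55 were in a single clone cell of an endothelial-like cluster. Ly6d was close to absent from T cells, at 1.29 and 0.217 CPM in the clones and 1.02 and 0 CPM in other T cells.

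Monocyte-like cells carried Ly6c2 in each of the 5 mice with at least 20 such cells. The level was 182, 607, 162, 672 and 2848 CPM in mice 27, 29, 30, 31 and 32, from 45, 222, 163, 27 and 126 cells, and log2(CPM + 10) averaged 9.04 ± 1.65 (SD, n = 5). In mouse 27 the value rested on 17 UMIs, of which 15 were in 1 cell. After thinning, 5.88%, 29.2%, 9.74%, 42.3% and 62.7% of monocyte-like cells had a Ly6c2 UMI. The 10 monocyte markers summed to 2935 to 13665 CPM in these cells. Ly6c2 was far lower in macrophage-like cells, at 1.41 to 20.6 CPM over 5 mice, and varied widely in neutrophil-like cells, from 22.9 to 1388 CPM over 6 mice.

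Among the other members, monocyte-like cells of mice 27, 29, 30, 31 and 32 had Ly6a at 21.5, 1.41, 14.8, 14.7 and 188 CPM, so mouse 32 stood above the rest. Ly6e was at 633, 366, 225, 1020 and 921 CPM in the same cells. Ly6d was at 0 UMIs in monocyte-like cells of all 5 mice, which allowed at most 1.84 to 32.2 CPM, and Ly6c1 ranged from 0 to 4.91 CPM.

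The 2 Ly-6C genes were counted in different cell classes. Over all libraries, monocyte-like cells held 5829 UMIs of Ly6c2 and 12 of Ly6c1 (0.205% of the pair), and neutrophil-like cells 26075 and 51. Endothelial-like cells held 3271 UMIs of Ly6c1 and 24 of Ly6c2 (0.728% of the pair). T-like cells held 6223 UMIs of Ly6c2 and 124 of Ly6c1. Reads from stretches that the paralogs share may be lost or given to either gene, and how they were assigned is not given in the sources used here.

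Across 9 cell classes with at least 20 cells in 3 or more mice, each member had its own order of levels. Endothelial-like cells led for Ly6a, with 329 to 1555 CPM over 5 mice and a mean log2(CPM + 10) of 9.54 ± 0.94 (SD), followed by T-like, epithelial-like, fibroblast-like, B-like, macrophage-like, erythroid-like, monocyte-like and neutrophil-like cells, the last at 4.93 ± 0.99 over 6 mice. Ly6a was higher in endothelial-like than in T-like cells in 5 of 5 mice, by 1.71 ± 0.82 on the log2 scale (SD), with an exact two-sided sign-flip p of 0.0625, the smallest that 5 mice allow, and 0.375 after adjustment over 6 pairs.

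Ly6c1 was led by endothelial-like cells at 193 to 1435 CPM, against 0 to 2.82 CPM in T-like cells and 0 to 1.21 CPM in B-like cells. The next classes, epithelial-like and fibroblast-like cells, ranged from 0 to 310 CPM and from 0 to 757 CPM. By mean, Ly6c2 was highest in monocyte-like and then neutrophil-like cells, followed by T-like cells at 1.43 to 292 CPM. Monocyte-like cells were above neutrophil-like cells in only 3 of 5 shared mice, by 0.70 ± 2.22 on the log2 scale (SD). Neutrophil-like cells exceeded T-like cells in 5 of 6 mice, by 2.99 ± 2.33 on the log2 scale (exact sign-flip p = 0.0625, adjusted 0.4375). The T-like cells of mice 30 and 32 in this pair include 2091 and 4546 T clone cells, so nothing is read from that p.

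Ly6d had its highest means in epithelial-like and B-like cells. The first rested on 77 epithelial-like cells of mouse 30 at 1069 CPM, with 3.16 to 56.3 CPM in the other 3 mice, and B-like cells ranged from 1.15 to 246 CPM over 6 mice. Ly6e was the most even member, from a mean log2(CPM + 10) of 9.79 ± 0.28 in epithelial-like cells to 7.77 ± 0.99 in erythroid-like cells. For no member did a tested pair of neighbouring classes differ at an adjusted p of 0.05. The smallest adjusted p was 0.375 for Ly6a and Ly6e, 0.4375 for Ly6c2 and 0.75 for Ly6c1 and Ly6d, and 3 to 6 shared mice allow no raw p below 0.25 to 0.03125. B-like and T-like cells include the clones, whose levels were known when the genes were chosen. The p-values of pairs with these classes are therefore not independent of that choice where clone cells are present.

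**Figure D3:**
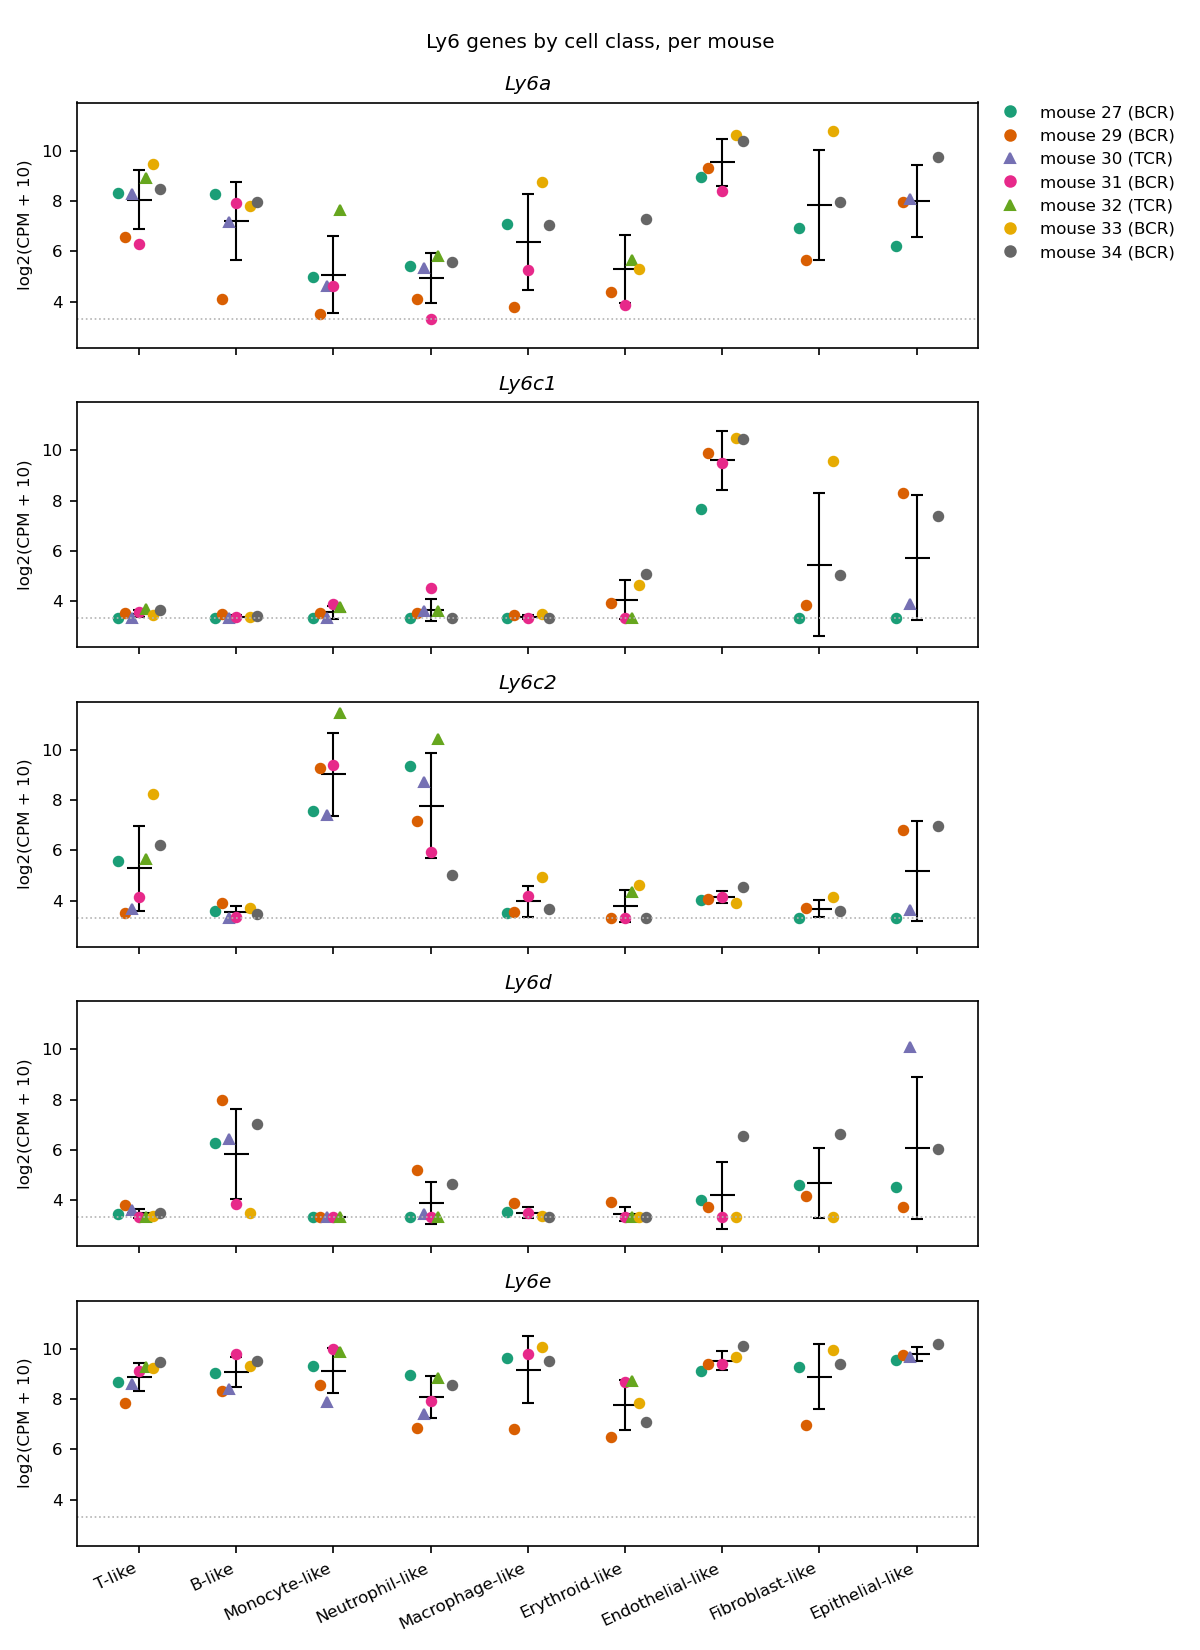
Levels of the 5 Ly6 genes as log2(CPM + 10) in 9 cell classes; each point is 1 mouse with at least 20 cells of the class and bars are mean ± SD. By mean, endothelial-like cells lead for Ly6a (329 to 1555 CPM) and Ly6c1 (193 to 1435 CPM), and monocyte-like cells for Ly6c2 (162 to 2848 CPM). For Ly6c2, monocyte-like cells are above neutrophil-like cells in 3 of 5 shared mice.

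Ly6a also moved with the mouse. In mouse 29 it was low in several classes, at 7.39 CPM in B-like, 3.84 in macrophage-like and 1.41 in monocyte-like cells, yet at 634 CPM in endothelial-like cells and 200 CPM in other B cells of the same library. In mouse 33 it was high in several, at 707 CPM in T-like, 420 in macrophage-like and 1772 in fibroblast-like cells. With 1 nodule library per mouse, the mouse, the organ and the library cannot be told apart.

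CD8 and CD4 T cells outside the clones gave a comparison that the choice of genes had not used. The gates used UMIs of Cd8a, Cd8b1 and Cd4, and each of the 7 mice had at least 20 cells in both, the fewest being 24 CD8 cells in mouse 30. Ly6c2 was higher in CD8 cells in 7 of 7 mice. Its level in CD8 cells was 80.6, 5.15, 14.1, 17.0, 158, 458 and 113 CPM in mice 27, 29, 30, 31, 32, 33 and 34, and in CD4 cells 12.7, 0.936, 0, 0, 27.7, 117 and 4.94 CPM. The levels of the 2 gates overlapped between mice. In mice 29, 30 and 31 they rested on 5 or fewer UMIs and their counting intervals overlapped within the mouse, while in mice 27, 32, 33 and 34 the intervals were apart.

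Averaged over mice, the log2 ratio of CPM + 10 was 1.75 ± 0.80 (SD, n = 7), with an exact two-sided sign-flip p of 0.015625, the smallest that 7 mice can give, and a test added after Ly6c2 was seen not to pass the filter of the edgeR fit. That p is 1 of 5 over the members and is not adjusted for them. It needs the same sign in all 7 mice. In mice 29, 30 and 31 the sign rested on 3, 1 and 4 UMIs in CD8 cells against 1, 0 and 0 in CD4 cells. Of 8105 genes of at least 10 CPM, 1.85% were higher and 5.39% lower in CD8 cells in each of the 7 mice. In the edgeR fit without a low-count filter the log2 fold change of Ly6c2 was 2.67 (SE 0.22, adjusted p = 3.92e-31). In the 5 other edgeR fits that kept the gene, each on 6 of the mice, it was 2.41 to 2.60 with adjusted p from 2.58e-05 to 0.000107. These were the fits without mouse 27, 29, 30 or 31 and the fit with gates of 2 UMIs. The filter dropped Ly6c2 from the fits without mouse 32, 33 or 34. Whether the gene was fitted thus depended on its level in the mice kept, and the p-values of these 5 fits are not read as support. The p of the fit without a filter, over 19793 genes with low-count genes kept, was far smaller than theirs at a like fold change. It is not read as a measure of the spread over mice or as support.

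The filtered edgeR fit called 318 of 6157 genes (5.16%), 116 higher (1.88%) and 202 lower (3.28%) in CD8 cells, and 75 higher and 289 lower without TMM scaling. Without the mouse as a block it called 8. Ly6a had a log2 fold change of −0.38 (SE 0.20, adjusted p = 0.362), with CD8 levels of 51.5 to 764 CPM and CD4 levels of 59.9 to 738 CPM, and was higher in CD8 cells in 3 of 7 mice. Ly6e had a log2 fold change of −0.27 (SE 0.13, adjusted p = 0.319) and was lower in CD8 cells in 6 of 7 mice, at 213 to 630 CPM against 319 to 817 CPM. By the exact sign-flip test Ly6e differed by −0.37 ± 0.35 (SD, n = 7; p = 0.046875, unadjusted), Ly6a by −0.43 ± 0.67 (p = 0.1875), Ly6c1 by −0.18 ± 0.45 (p = 0.34375) and Ly6d by −0.02 ± 0.07 (p = 0.75).

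**Figure D4:**
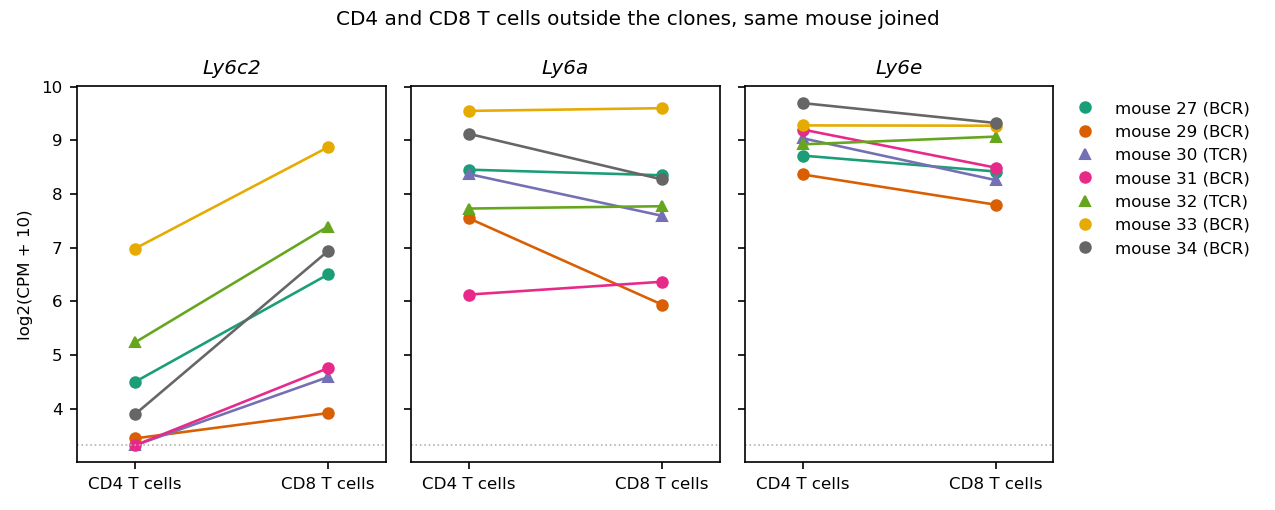
Ly6c2, Ly6a and Ly6e in CD4 and CD8 T cells outside the clones as log2(CPM + 10), with a line joining the 2 values of each of 7 mice (circles, mice with a B clone; triangles, mice with a T clone). The Ly6c2 line rises from CD4 to CD8 in 7 of 7 mice, and the Ly6e line falls in 6.

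The same fit held genes of the fixed lists. Of the interferon-induced list 13 of 20 genes were fitted, with 4 lower in CD8 cells and 0 higher. Among the 4, Ifit1, whose product binds viral RNA, had a log2 fold change of −1.48 (SE 0.15, adjusted p = 2.3e-05). The ubiquitin-like Isg15 was at −0.97 (SE 0.11, adjusted p = 5.19e-05). Rtp4, which encodes a receptor transport protein, stood at −0.98 (SE 0.20, adjusted p = 0.00742). The list's median was −0.27, against 0.01 over all genes fitted. Of the T cell state list 16 of 17 genes were fitted and 12 were not called. Tbx21, which encodes T-bet, and Eomes were higher in CD8 cells at 1.52 and 1.19, and Bcl6 of follicular helper cells was lower at −0.62.

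T cells outside the clones were also compared between the 2 mice with a T clone and the 5 with a B clone. The 2 sets were chosen differently: in mice 30 and 32 only T-like cells with a receptor other than the clone's were used (394 of 9313 and 503 of 7914 T-like cells), while in mice with a B clone nearly all T-like cells were used, with no T cell receptor call (574 of 574 in mouse 27, 5122 of 5125 in mouse 29). This difference and the group cannot be told apart. The cells of mice 30 and 32 are also the other T cells of the T clone comparison. Their levels were known when the genes were chosen, so the p-values of members here are not independent of that choice. In mice 27, 29, 31, 33 and 34 they had Ly6a at 307, 86.2, 68.5, 707 and 350 CPM, and in mice 30 and 32 at 301 and 244 CPM. Ly6c2 was at 37.2, 1.44, 7.61, 292 and 64.0 CPM in the former and at 7.12 and 128 CPM in the latter, and Ly6e at 397, 217, 541, 601 and 702 CPM against 485 and 496 CPM. The groups overlapped for all 3 genes. The edgeR log2 fold changes, TCR minus BCR mice, were −0.22 (SE 0.83) for Ly6a, −0.30 (SE 1.61) for Ly6c2 and −0.01 (SE 0.42) for Ly6e, with adjusted p of 0.988, 0.988 and 0.996. The fit called 0 of 10332 genes (0%), with 296 at an unadjusted p under 0.05, and DESeq2 called 4. The standard errors show that changes of several fold in Ly6c2 would not have been detected with 2 against 5 mice. Without mouse 33 the Ly6a value turned to 0.43 and the Ly6c2 value to 1.40; Ly6c2 was also 0.63 without mouse 30 and −3.63 without mouse 32.

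The 32 other genes of the Ly6/uPAR family that were listed were seldom counted in lymphocytes: 1 was fitted in the B clone comparison, 2 in the T clone comparison, 0 in CD8 against CD4 cells and 1 in the T cells of TCR against BCR mice, and none was called. Their summed level was 8.79 to 66.2 CPM in B clones and 412 to 708 CPM in monocyte-like cells. Of the interferon-induced list 12 genes were fitted between B clones and other B cells and 0 called, with a median log2 fold change of −1.06 against 0.13 over all genes; between T clones and other T cells 19 were fitted and 0 called, with a median of −0.63 against 0.03. Of the B cell stage list 16 were fitted between B clones and other B cells, and only Ighm was called, at −10.34 (SE 1.11, adjusted p = 0.0171). Of the T cell state list 17 were fitted between T clones and other T cells, and only Eomes was called, at −6.74 (SE 0.38, adjusted p = 0.0187). Both calls were lost without the mouse as a block, where 0 genes were called in either comparison, and that of Eomes also with the largest clonotype as the clone or with clone cells of T-like clusters only, again with 0 genes called. In other B cells of mice 29, 31, 33 and 34 the interferon-induced list summed to 367, 1299, 1517 and 675 CPM, against 191, 519, 843 and 548 CPM in their clones.

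Genes whose levels ran most like each member's were sought over 49 sums of 1 class in 1 mouse and 9081 genes. These are descriptions without a p, since the sums share libraries, depth and clone cells. Ly6a ran most like Gbp4, an interferon-induced GTPase (Pearson r = 0.77), and then H2-Q7, Mid2, Tmem173 and H2-T22. Ly6c1 ran most like Galnt18 (0.95) and Adgrf5 (0.91), then Fgd5, Mecom and Ramp2. Ly6c2 ran most like Ltb4r1, a leukotriene receptor (0.80), then Gpr141, Atp8b4, Prtn3 and Ifitm6. For Ly6d these were Bcl7a (0.67), Fcrla, Eif2ak3, Iqcb1 and the B cell adaptor Blnk, and for Ly6e the proteasome activator Psme1 (0.81), Edf1, Psmb8, Ndufb5 and Atp5g3. Among the members, Ly6a correlated with Ly6c1 at 0.56 and with Ly6e at 0.55, and the paralogs Ly6c1 and Ly6c2 with each other at −0.11.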

How the data were processed

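The nodules' cells were dissociated and dead cells removed before library construction; the labels and the study's methods differ on whether the RNA kit captured 5′ or 3′ ends. The deposited RNA matrices hold unnormalized counts (UMIs of each gene in each cell), made by the authors against GRCm38 (also named mm10 in the submitters' processing notes); the aligner settings, annotation release, strand setting and handling of reads shared by paralogs are not given in the sources used here. The authors called receptor clonotypes per cell in the V(D)J libraries with SeekSoulTools, and their tables of contigs were used for clone membership. No per-sample column was left unmapped.

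Cells with more than 200 UMIs, more than 100 genes and at most 10% mitochondrial UMIs, the study's limits, were kept; no cell in the matrices had fewer than 500 UMIs. No doublet caller was run. Clone cells in clusters of another lineage, which may be doublets, are counted beside the results and were left out in an alternative. Cells were clustered without the 5 Ly6 genes (scanpy 1.11.5, Leiden from leidenalg 0.10.2, 2000 variable genes, 30 components, 15 neighbours, resolution 1.0; 33 clusters, 66 after a second pass) and named "-like" from marker lists that held no Ly6 gene, with at least 3 markers detected; the second pass and the naming limits were set with the clusters in view.

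UMIs were summed per mouse and cell kind (at least 20 cells) and fitted over all genes with edgeR 4.0.16 (quasi-likelihood, TMM, filterByExpr, Benjamini-Hochberg, threshold 0.05; R 4.3.3), with the mouse as a block. The same mouse number marks the same animal, so the numbers pair the samples; TCR and BCR mice share none. Each fit was tested on simulated data with an assumed spread, the same for every gene, and with no further differences between mice. Of genes changed by a log2 fold of 1, it called 8.08% for B clones and 1.92% for T clones. For CD8 against CD4 cells it called 54.8%, and for TCR against BCR mice 15.7%. At a log2 fold of 2 these shares were 74.7%, 40.7%, 100% and 82.0%. These shares do not hold for genes that vary more between mice. Ly6a and Ly6c2 had an SE of 0.83 and 1.61 between TCR and BCR mice. A gene or list without a call in a clone comparison may thus still differ. DESeq2 1.42.0, no block, no scaling, no filter, other clone definitions and references, and leaving out each mouse were alternatives. Log2 ratios use CPM + 10. Ratio and level intervals are exact 95% intervals that cover counting error only. A level at 0 is bounded by 3 counts and a share at 0 by its exact interval. The libraries come from separate animals, but cells of 1 library share it.

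The 5 members and all gene lists were chosen with earlier results of these data known. The text names the 5 members, list genes that were called or moved most, and the 5 genes most like each member. Added after the data were seen were the sign-flip test of CD8 against CD4 cells, the monocyte mean over cells, the split of other B cells by Ly6c2, and the motifs. Promoter windows came from RefSeq for 2 of 5 members, and protein sequences for 0. Some called list genes are not reported here.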

Additional observations from a re-analysis of the deposited data

Results flagged for a closer look

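In groups of 4 to 7 mice, the highest and lowest log2(CPM + 10) of each member were compared with the rest by Dixon's 95% criterion. This was done in 53 groups with a highest level of at least 10 CPM, and 8 were marked. Chance alone would mark about 1 in 20 independent groups, but some of these groups share cells. B clones, other B cells and monocyte-like cells were among the groups, and their levels were known when the genes were chosen. Marks in B-like and T-like classes with clone cells share this limit. Such marks are descriptions and not tests, and the causes of all marks were not tested.

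Ly6a in the B clone of mouse 29 was 3.08 CPM, below 246 to 392 CPM in the other 4 clones, and Ly6a in the B-like cells of that mouse was 7.39 CPM, below 135 to 300.3 CPM; both hold many of the same cells. Ly6e in the macrophage-like cells of mouse 29 was 103 CPM, below 732 to 1067 CPM. Ly6a in the other B cells of mouse 33 was 762 CPM, above 200 to 217 CPM, from 28 cells.

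Ly6c1 in the B clone of mouse 34 was 10.3 CPM, above 0.0550 to 1.80 CPM, and 91.6% of its UMIs were in 15 clone cells of endothelial-like clusters. Ly6c1 in the other T cells of mouse 32 was 24.7 CPM, above 0 to 3.05 CPM in the other 6 mice. Ly6c1 in the neutrophil-like cells of mouse 31 was 13.0 CPM from 37 cells, above 0 to 2.10 CPM. Ly6d in the endothelial-like cells of mouse 34 was 83.2 CPM, above 0 to 6.21 CPM, in a mouse whose B clone had 112 CPM.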

How the results depend on the processing

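Of 176 recomputed main values, 142 were counted as unchanged and 34 as moved. Log2 ratios without a test were held to the spread over mice, and counts of genes to 1.5 times. Values with a test were held only to the same side of its threshold, so their size could differ. Ly6c2 between TCR and BCR mice, −0.30 in the main fit, was counted as unchanged at −3.63 and at 1.40. No value that had passed a test changed sign. Counts of called genes moved most. With the mouse as a block 8 genes were called for B clones; the count was 0 with no replicate block, 112 with DESeq2, 2 without scaling, 110 without the filter, 2 without cells holding Cd3 UMIs, 3561 against T-like cells and 6 to 19 leaving out 1 mouse, the 19 without mouse 31. For T clones 25 became 0 with no replicate block, 220 with DESeq2, 4 without scaling, 525 without the filter, 0 with the largest clonotype alone, 15 without cells holding B marker UMIs, 72 against CD4-gated cells and 0 with T-like clone cells only. For CD8 against CD4 cells 318 became 8 with no replicate block, 878 without the filter, 46 with gates of 2 UMIs in 6 mice, and 154 to 455 leaving out 1 mouse, with 157 without mouse 29 and 154 without mouse 34. For TCR against BCR mice 0 became 4 with DESeq2, 1 without scaling, 1 without the filter and 0 to 5 leaving out 1 mouse, the 5 without mouse 29. No paired analysis was possible there because the 2 groups share no mouse.

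Against T-like cells of the same library the B clone log2 ratio was 2.31 for Ly6d and 0.47 for Ly6e, both of the opposite sign, by the change of reference. In the T clones, Ly6a became 0.90 against CD4-gated cells and 0.97 with T-like clone cells only. Ly6c2 became −0.44 with a pseudocount of 1 CPM, −0.31 with the largest clonotype, −0.43 without cells holding B marker UMIs, −1.15 with T-like clone cells only, and 1.06 against CD4-gated cells, where its sign turned. Leaving out 1 mouse gave −1.80 to −0.38 for Ly6a, −3.90 to −2.37 for Ly6c2, −3.37 to −1.93 for Ly6d and −0.21 to 0.01 for Ly6e in B clones. Between TCR and BCR mice it gave −0.49 to 0.43 for Ly6a and −3.63 to 1.40 for Ly6c2. For Ly6c2, CD8 minus CD4 ran from 1.54 to 1.96. Mean unthinned shares were higher than thinned ones for each gene and population that had a UMI, other than Ly6d in other T cells.

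A reference of B-like cells with an Ighd UMI gave too few cells, and no gene count can be had for T clones without 1 of the 2 mice, since no residual degrees of freedom remain. The cause of the other moves was not tested. Depth limits Ly6c1 and Ly6c2 in other B cells, where 3 UMIs are 11.8 to 21.6 CPM, and in the CD8 cells of mouse 30, where they are 42.3 CPM.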

Other observations

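Because Ly6a and Ly6e are known as interferon-inducible, their levels in T cells outside the clones were set against the summed CPM of the interferon-induced list over the 7 mice, together with Ly6c2, as 3 relations chosen after the data were seen. The values of mice 30 and 32 are those of the other T cells of the T clone comparison. The p-values are therefore not independent of the choice of genes. No relation was found. For Ly6a Pearson's r was −0.32 (exact permutation p = 0.503) and Spearman's rho −0.43 (exact permutation p = 0.354), and r was 0.18 without mice 30 and 31, the 2 farthest from the median. For Ly6c2 r was −0.47 (exact permutation p = 0.286) and rho −0.21 (exact permutation p = 0.662), and r was 0.46 without the same mice. For Ly6e r was 0.17 (exact permutation p = 0.734), rho −0.21 (exact permutation p = 0.662), and r 0.04 without them. The adjusted p was 0.734 for each Pearson value.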
